A study of Isostichopus badionotus with 6 samples.

Results

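Locus_72 and Locus_831 are the assembled loci of the sea cucumber *Isostichopus badionotus* that hold the transcripts matched to the mitochondrial gene of cytochrome c oxidase subunit I (COX1, also written COI). They were chosen by identifier, as every row of the count table that belongs to either locus, which gave 2 of 80132 loci and 66 of 129776 transcripts. Locus_72 held 60 of these transcripts, from 136 to 736 nt in length, and Locus_831 held 6, from 243 to 622 nt. The name COX1 rests on 6 of the 66 transcripts, 5 in Locus_72 and 1 in Locus_831, and 1 more of Locus_72 was matched to a whole mitochondrial genome. These names come from the list of transcripts that the study called different between wild and farmed animals, so a transcript without a name was not necessarily without a database match. None of the 66 was as long as a whole COX1 reading frame of an animal mitochondrial genome, and together they came to 20413 nt. The named transcripts held 3.68% to 16.4% of the counts of Locus_72 in an animal, and 1.91% to 4.03% of those of Locus_831. How far the locus sums stand for the level of COX1 was thus not tested.

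COX1 is the catalytic core of cytochrome c oxidase, complex IV of the respiratory chain, which passes electrons from cytochrome c to oxygen and pumps protons across the inner mitochondrial membrane. It is encoded in the mitochondrial genome, and its mRNA carries a short poly(A) tail in most animals, so it is usually abundant in libraries made from polyadenylated RNA. The gene is also the standard barcode by which animal species, sea cucumbers included, are told apart, because its sequence varies between species and, less so, between individuals. The 16S rRNA, which builds the large subunit of the ribosome inside mitochondria, is read from the same genome and is used below as a yardstick.

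Body wall RNA was sequenced from 6 captive animals, 1 library for each. By the sample labels 2 of them (animals 5 and 6) were adults adapted to captivity and 4 (animals 1 to 4) were juveniles in captivity, although the series is described as a whole as 6 juveniles. All of them were kept in captivity without another treatment named in the labels, and no source used here gives the ages of the adults. The labels of adults and juveniles also differ in this wording on captivity. Stage and history in captivity thus cannot be told apart in the comparisons of stages below. Several pieces of body wall were pooled within each animal, so the libraries stand for whole body wall and not for a cell type.

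Counts per library ran from 21714696 to 31742950, and the TMM factors of the transcript totals were 0.973 and 0.586 in adults 5 and 6, against 1.04 to 1.32 in the juveniles. The locus of 28S rRNA, an RNA of the cytoplasmic ribosome, took 2.25% and 8.85% of the counts of adults 5 and 6, against 0.488% to 5.43% in the juveniles, with juvenile 3 the highest of these. Collagen, the defining protein of the body wall, was counted in every animal, with 8 listed transcripts summing to 369 and 480 CPM in the adults and 59.4 to 253 CPM in the juveniles. Markers of muscle, which also lies in the body wall, summed to 2817 and 2541 CPM over 6 transcripts in the adults, against 1725, 210, 508 and 2478 CPM in juveniles 1 to 4. Myosin heavy chain alone gave 2071 and 1854 CPM of this in the adults, against 1328, 41.3, 316 and 1923 CPM in juveniles 1 to 4. In bulk tissue, fewer cells of a type and less RNA per cell cannot be told apart.

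Locus_72 ranked between 4 and 6 of 80132 loci by counts in every animal, and Locus_831 between 12 and 26. The transcripts of Locus_72 together had 968204 and 768812 counts in adults 5 and 6, against 995178, 1107701, 889073 and 872792 counts in juveniles 1 to 4. These sums were 4.07% and 2.94% of the library counts of the adults, and 3.14%, 5.10%, 2.97% and 3.08% of those of the juveniles. Juvenile 2 stood highest, adult 5 came next, and the other 4 animals lay close together. The 95% Wilson interval of juvenile 2 ran from 5.09% to 5.11% and that of adult 6 from 2.93% to 2.94%, so the gap between these animals is beyond counting error, which is all that such an interval covers.

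Locus_831 varied in a like manner at a lower count. It had 125754 and 114688 counts in adults 5 and 6, against 124669, 153945, 101106 and 102521 counts in juveniles 1 to 4. These were 0.529% and 0.438% of the library counts of the adults, and 0.393%, 0.709%, 0.337% and 0.361% of those of the juveniles. Juvenile 2 was again the highest and adult 5 the next, and the adults lay within the range of the juveniles. Juvenile 2 was also the animal with the smallest library and with the lowest sum of muscle markers, 210 CPM, and the part of either in these shares was not tested. The markers were split in it. Myosin heavy chain (41.3 CPM), filamin-C (29.4 CPM) and a calcium ATPase (11.7 CPM) were the lowest of the 6 animals there. Cardiac alpha actin (30.4 CPM) was the highest there, and muscle actin (26.5 CPM) and alpha-actinin-2 (71.1 CPM) were not low.

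Scaled by TMM, which sets the bulk of the loci level between libraries, Locus_72 stood at 42754 and 53263 CPM in adults 5 and 6, against 27062, 49782, 25456 and 22350 CPM in juveniles 1 to 4. Locus_831 stood at 5553 and 7946 CPM in the adults, against 3390, 6919, 2895 and 2625 CPM in the juveniles. On this scale adult 6, with the lowest TMM factor, became the highest animal for both loci, and juvenile 2 lay between the adults while the other 3 juveniles lay below them. For both loci the groups therefore overlapped through juvenile 2.

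**Figure D1:**
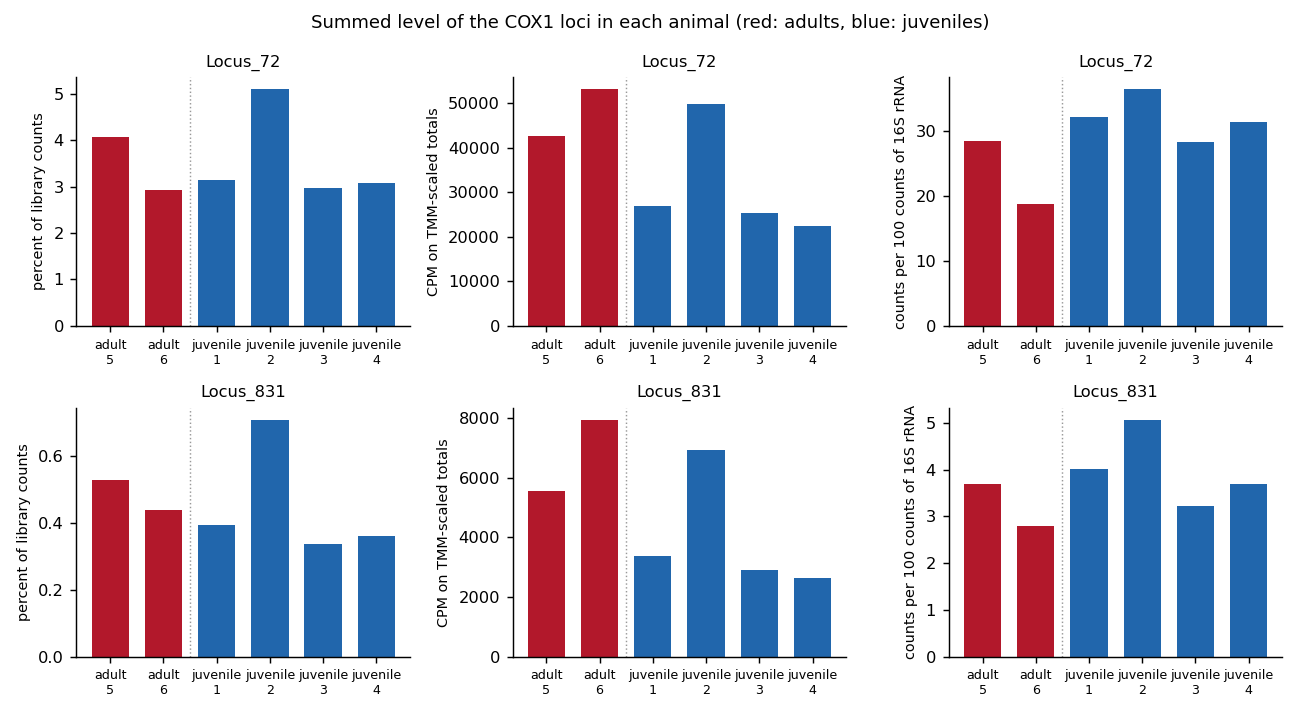
Summed level of Locus_72 (upper row) and Locus_831 (lower row) in each animal, as percent of library counts, as CPM on TMM-scaled totals and as counts per 100 counts of the mitochondrial 16S rRNA loci; red bars are the 2 adults, blue bars the 4 juveniles, and each bar is 1 animal. Juvenile 2 is highest as percent of library for both loci, at 5.10% and 0.709%, and adult 6 is lowest per 100 counts of 16S rRNA, at 18.8 and 2.80.

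The comparison of stages asked whether the summed level of each locus differed between adults and juveniles by more than the animals of a stage differed among themselves. With edgeR's quasi-likelihood test over 8876 loci, the log2 fold change of adults over juveniles was 0.62 ± 0.64 (SE) for Locus_72 (unadjusted p = 0.36, Benjamini-Hochberg adjusted p = 0.77). For Locus_831 the same edgeR fit gave 0.77 ± 0.58 (SE) with an adjusted p = 0.683. Neither passed, and no locus did: 0 of 8876 (0%) had an adjusted p under 0.05, and 705 (7.94%) had an unadjusted p under 0.05. DESeq2 called 154 loci and the exact test of edgeR 7, but neither member among them.

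The sign of the log2 fold change depended on the scaling for Locus_72 but not for Locus_831, and with library totals alone both values were smaller. With library totals alone the value of Locus_72 lay within its standard error (0.43) of 0. The median log2 fold change of all loci was -0.11 under TMM and -0.76 with library totals alone, and with totals alone Locus_72 stood at -0.03 and Locus_831 at 0.10. Without juvenile 2 the log2 fold changes were 0.99 and 1.23 under TMM, still short of the threshold (adjusted p = 0.49 and 0.3 in edgeR).

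Measured against other loci with a mitochondrial match, the adults and juveniles were placed otherwise. For every 100 counts of the 5 mitochondrial 16S rRNA loci, Locus_72 had 28.5 and 18.8 counts in adults 5 and 6, against 32.1, 36.5, 28.3 and 31.4 counts in juveniles 1 to 4. Adult 6 stood below all others, and adult 5 lay just above juvenile 3. From the highest of these ratios to the lowest, the animals were juveniles 2, 1 and 4, adult 5, juvenile 3 and adult 6. In that order the 28S rRNA locus took 0.488%, 0.641%, 1.06%, 2.25%, 5.43% and 8.85% of library counts. The ratio thus ranked the animals in reverse of that share, and the part of rRNA content in it was not tested. This order was not exact in the measures given next. For Locus_831 per 100 counts of 16S rRNA, adult 5 (3.71) lay above juvenile 4 (3.69). For Locus_72 as a share of the loci matched to mitochondrial sequence, juvenile 3 (20.4%) lay above adult 5 (20.2%). Adults averaged 23.7 counts (n = 2) and juveniles 32.1 ± 3.36 counts (SD, n = 4), with p = 0.133 in a two-sided exact permutation test over all 15 ways to choose 2 of 6 animals. The smallest p that this design allows is 0.0667, so no such test could reach 0.05. The 5 loci of this yardstick hold 24 transcripts, of which 6 carry a 16S rRNA match in the study's list. These 6 summed to 164784 CPM in adult 6 and 40356 CPM in juvenile 4. The whole 5 loci stood at 283269 and 71236 CPM there, so part of the yardstick carries no such match.

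As a share of the 9 loci matched to mitochondrial sequence, Locus_72 held 20.2% and 13.5% of the counts in adults 5 and 6, against 22.1%, 23.8%, 20.4% and 22.0% in juveniles 1 to 4. Both adults lay below all juveniles, adult 5 by less than 1 percentage point, and the exact permutation p was at its minimum, 0.0667, and 0.378 after Benjamini-Hochberg adjustment over 17 comparisons. Locus_831 had 3.71 and 2.80 counts per 100 of 16S rRNA in the adults, against 4.02, 5.07, 3.22 and 3.69 in the juveniles, and these groups overlapped (exact permutation p = 0.4). Of the 9 loci, 2 are counted as mitochondrial through 3 transcripts matched to mitochondrial genomes of fish. Those 3 summed to between 44.0 and 88.9 CPM in an animal, and the whole 2 loci to between 5278 and 49326 CPM. Most counts of these 2 loci thus carry no such match in the study's list. Against 16S rRNA alone the groups overlapped for Locus_72. In adult 6 these 2 loci took 2.72% of the library, against 1.25% in adult 5 and 0.726% to 1.67% in the juveniles. Their part in the low share of Locus_72 in that animal was not tested.

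The ratio of the 2 COX1 loci varied within a limited range. For every 100 counts of Locus_72, Locus_831 had 13.0 and 14.9 counts in adults 5 and 6, against 12.5, 13.9, 11.4 and 11.7 counts in juveniles 1 to 4. The groups overlapped, at 14.0 (n = 2) in adults and 12.4 ± 1.12 (SD, n = 4) in juveniles, with an exact permutation p of 0.2. By the profile over the 6 animals, measured as the root mean square difference of mean-centred log2 CPM, Locus_831 was 0.135 away from Locus_72 and ranked 37 of 8864 loci, whose median was 0.70.

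Among loci with a name in the study's list, the profile closest to that of Locus_72 was that of ATIC, an enzyme of the last steps of purine synthesis, in Locus_6776 at 0.108 on that log2 scale. Locus_831 came next, and a protein disulfide-isomerase A4, which helps proteins fold in the endoplasmic reticulum, was the third at 0.145 (Locus_8685). The closest to Locus_831 were the pre-mRNA processing factor PRPF19 (Locus_14667, 0.126), Locus_72, and a ribosomal protein L5 of the large subunit (Locus_4511, 0.168), against a median of 0.81 over all loci. These likenesses rest on 6 animals and describe the profiles only.

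Inside Locus_72 the counts were spread over many transcripts. Of its 60 transcripts 4 had no count in any animal, 44 were counted in all 6 animals, and 22 never reached 100 counts. It took 13 transcripts to reach 90% of the counts in each of 4 animals and 14 in juveniles 3 and 4. The assembler numbered the transcripts of this locus up to 311, and 60 of these numbers occur in the table.

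Transcript 177 (414 nt) led in every animal, with 19.2% and 23.0% of the counts of Locus_72 in adults 5 and 6, against 18.0%, 19.0%, 18.9% and 19.6% in juveniles 1 to 4. It was also the highest member per length, at a mean of 17472 CPM per kb over the 6 animals. Transcript 100, the longest at 736 nt, held the second largest share in 4 animals, but not in adult 6, where transcript 97 did, nor in juvenile 3, where transcript 282 did. Its share was 12.5% and 8.15% in the adults, against 11.8%, 11.8%, 11.2% and 11.0% in the juveniles. In both transcripts it was adult 6 that stood apart from a tight set of 5 animals, higher in transcript 177 and lower in transcript 100.

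Transcript 282 (520 nt) differed widely between the adults. It held 10.5% of the locus in adult 5 but 2.85% in adult 6, against 11.2%, 9.38%, 11.3% and 9.95% in juveniles 1 to 4. Adult 5 thus lay inside the range of the juveniles and adult 6 far below it. The mean was 6.67% in adults (n = 2) and 10.5% ± 0.944 in juveniles (SD, n = 4) and the exact permutation p was 0.2.

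**Figure D2:**
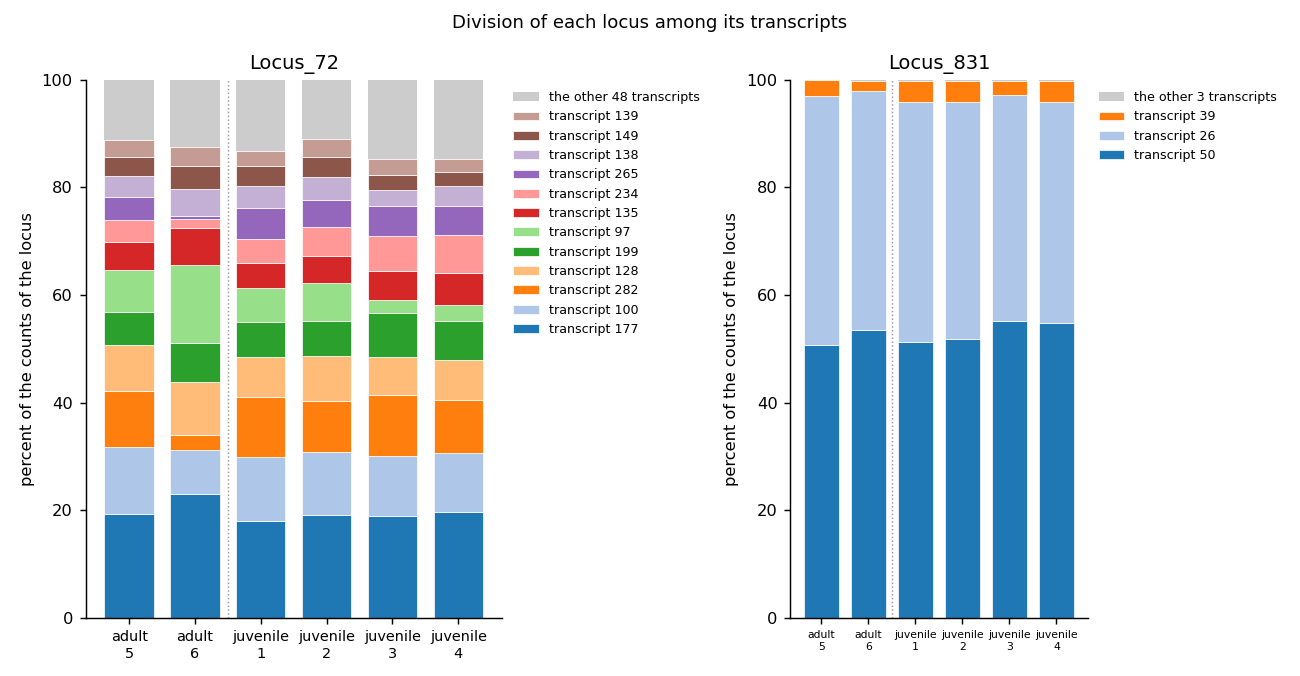
Division of Locus_72 (left) and Locus_831 (right) among their transcripts in each animal, as percent of the counts of the locus; adults stand left of the dotted line and juveniles right of it, and grey holds the transcripts not drawn singly. In Locus_72 adult 6 has a wide block for transcript 97 (14.6%) and thin ones for transcripts 282, 234 and 265, while the 6 columns of Locus_831 are nearly alike.

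The 6 named transcripts of Locus_72 held a minor part of its counts. Together they made up 10.2% and 16.4% of the locus in adults 5 and 6, against 8.41%, 8.58%, 3.68% and 4.47% in juveniles 1 to 4. Most of that was transcript 97 (477 nt), matched to COX1 of *I. badionotus* itself. It held 7.76% and 14.6% of the locus in the adults, against 6.33%, 7.14%, 2.34% and 2.85% in the juveniles.

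For transcript 97 both adults lay above all juveniles, and the juveniles fell into an upper pair (1 and 2) and a lower pair (3 and 4). Adults averaged 11.2% (n = 2) and juveniles 4.67% ± 2.42 (SD, n = 4), with an exact permutation p of 0.0667, the smallest possible, and 0.378 after adjustment over the 17 comparisons. The gap between adult 5 and juvenile 2 was under 1 percentage point, while the 2 adults were nearly 7 points apart. Its level on TMM-scaled totals was 3249 and 7287 CPM in adults 5 and 6, against 1767, 3492, 615 and 663 CPM in juveniles 1 to 4, so on that scale juvenile 2 overlapped the adults. The log2 fold change was 1.69 ± 0.79 (SE), with adjusted p = 0.56 in edgeR's quasi-likelihood test. It was 1.03 without adult 6, 2.44 without juvenile 2 and 1.05 with library totals alone.

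The other named transcripts were smaller. Transcripts 84 (551 nt) and 132 (241 nt) share the match of transcript 97, and transcripts 42 (371 nt) and 49 (480 nt) were matched to COX1 of the sea urchin *Echinometra oblonga*. Transcript 50 (362 nt) was matched to the whole mitochondrial genome of *Echinometra mathaei*. Transcript 84 held 0.0442% and 0.0467% of the locus in adults 5 and 6, against 0.191%, 0.0516%, 0.0432% and 0.0453% in juveniles 1 to 4, so juvenile 1 alone stood high. Transcript 132 had 95 to 452 counts per animal and was lowest in juvenile 1 and highest in juvenile 3.

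Transcript 49 held 1.01% and 1.45% of the locus in adults 5 and 6, against 1.07%, 0.733%, 1.04% and 1.28% in juveniles 1 to 4, with the groups overlapping. Transcript 50 held 0.249% and 0.274% in the adults, against 0.213%, 0.201%, 0.191% and 0.239% in the juveniles, with both adults above all juveniles by a narrow margin (exact permutation p = 0.0667, adjusted p = 0.378). As the study chose these names for a difference that involved farmed animals, they are no independent evidence of a direction between stages.

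Adult 6 differed from the other 5 animals in several transcripts at once, and the transcripts concerned were picked once their values were known. Transcript 265 (319 nt) held 4.22% and 0.677% of Locus_72 in adults 5 and 6, against 5.68%, 5.09%, 5.60% and 5.45% in juveniles 1 to 4. Transcript 234 (317 nt) held 4.13% and 1.57% in the adults, against 4.54%, 5.37%, 6.44% and 7.12% in the juveniles. In both, adult 6 was by far the lowest and adult 5 lay a little below the juveniles.

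Together with transcript 282 these made up 18.8% and 5.10% of Locus_72 in adults 5 and 6, against 21.4%, 19.8%, 23.3% and 22.5% in juveniles 1 to 4. Of the 29 transcripts of Locus_72 with at least 1000 counts in some animal, adult 6 had the highest share in 11 and the lowest in 8, and juvenile 3, the next most frequent, had 7 of each. A different trio ran along another line: transcripts 297, 304 and 308 summed to 3.61% and 4.47% in adults 5 and 6, against 6.61%, 2.59%, 7.94% and 8.04% in juveniles 1 to 4. There juvenile 2 was the lowest, the adults came next, and juveniles 1, 3 and 4 were high.

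Some transcripts were present in some animals and close to absent in others. Transcript 195 (381 nt) had 2 and 10713 counts in adults 5 and 6, against 21, 21398, 0 and 40 counts in juveniles 1 to 4. It made up 1.39% of Locus_72 in adult 6 and 1.93% in juvenile 2, and the 0 of juvenile 3 allows a share of up to 0.000337%. The animals thus split into adult 6 and juvenile 2 on the one side and the other 4 on the other, across the stages. It failed the filter on low values and is not among the transcripts tested singly with that filter, but it entered the test of division between stages.

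Transcript 42, one of the matches to *E. oblonga*, had 11098 and 163 counts in adults 5 and 6, against 5994, 4771, 118 and 156 counts in juveniles 1 to 4. Its share was 1.15% in adult 5, 0.602% in juvenile 1 and 0.431% in juvenile 2, and between 0.0133% and 0.0212% in the remaining animals. Here adult 5 went with juveniles 1 and 2, and adult 6 with juveniles 3 and 4. Transcript 18 (337 nt) had 543 and 803 counts in the adults, against 453, 27, 1428 and 1163 counts in the juveniles, so juvenile 2 alone stood low.

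These 3 transcripts, 195, 42 and 18, were the members whose share of their locus differed at least 10-fold between animals, out of 32 members with at least 1000 counts in some animal (9.38%). Over all loci with such counts, 67 of 1584 transcripts (4.23%) did so. The limit of 10-fold was set after the values had been seen. Transcript 265, at 8.39-fold, fell just short of it, and shares below 3 counts were set to 3 counts for this purpose.

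**Figure D3:**
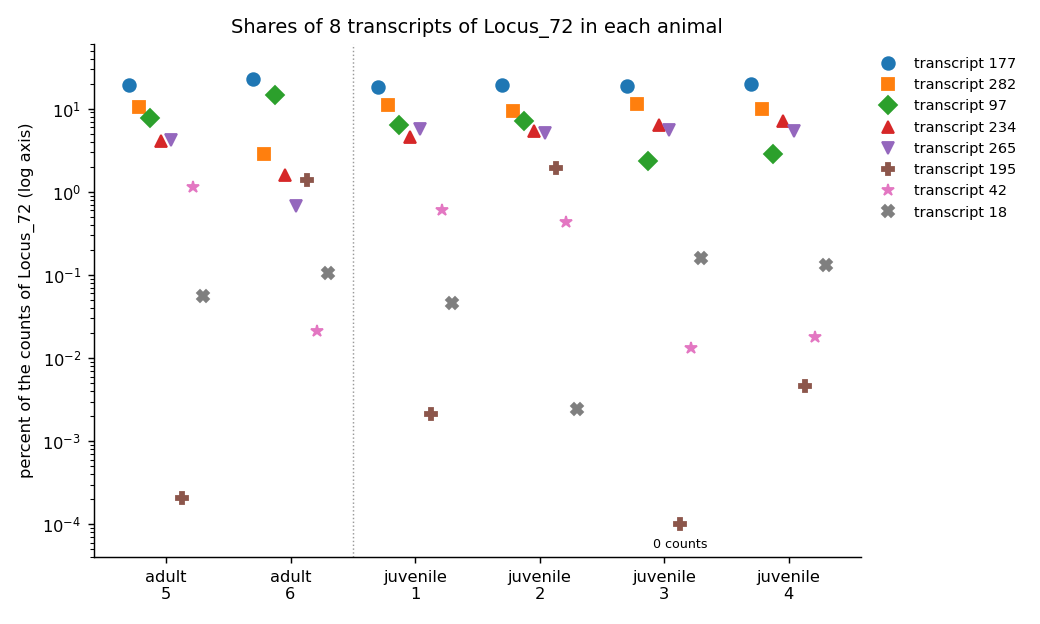
Share of the counts of Locus_72 held by 8 of its transcripts in each animal, on a log axis in percent; adults stand left of the dotted line, juveniles right of it, and the symbol placed at the bottom for transcript 195 in juvenile 3 stands for 0 counts. Transcript 177 stays between 18.0% and 23.0%, while transcript 195 is near 1% to 2% in adult 6 and juvenile 2 only, and transcript 42 is high in adult 5 and juveniles 1 and 2.

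Locus_831 was divided in much the same way in every animal. Transcript 50 of this locus (289 nt) held 50.7% and 53.5% of its counts in adults 5 and 6, against 51.3%, 51.8%, 55.1% and 54.9% in juveniles 1 to 4. Transcript 26 (293 nt) held 46.3% and 44.5% in the adults, against 44.6%, 44.0%, 42.0% and 41.1% in the juveniles. The groups overlapped in both (exact permutation p = 0.467 and 0.2), and these 2 transcripts always made up more than 90% of the locus.

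The named transcript of Locus_831, transcript 39 (622 nt), was matched to COX1 of *Isostichopus fuscus*, a sea cucumber of the same genus. It held 2.90% and 1.91% of the locus in adults 5 and 6, against 3.98%, 4.03%, 2.73% and 3.87% in juveniles 1 to 4. Adult 6 was the lowest, and adult 5 lay just above juvenile 3 (adult mean 2.41%, juvenile mean 3.65% ± 0.621, SD; n = 2 and 4; exact permutation p = 0.133). Per length the difference from its partners was larger still, at a mean of 241 CPM per kb for transcript 39, against 8768 for transcript 50 and 7260 for transcript 26. The other 3 transcripts of the locus had at most 245 counts in any animal.

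To compare whole divisions, the dissimilarity of 2 animals was taken as the part of the counts of a locus that would have to change transcript for the shares to be equal, from 0 (equal) to 1 (nothing shared). For Locus_72 it was 0.205 between the adults, 0.0519 to 0.274 between an adult and a juvenile (mean 0.165 over 8 pairs) and 0.0392 to 0.119 between juveniles (mean 0.0859 over 6 pairs). Juveniles 3 and 4 were the most alike. The 5 pairs with adult 6 averaged 0.235, and the 10 pairs without it 0.0867, with no overlap between these sets of pairs. Adult 5 was as close to juveniles 1 and 2 (0.0661 and 0.0519) as the juveniles were to each other.

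For Locus_831 the 15 pairs averaged 0.0281 and none exceeded 0.0521, and pairs with adult 6 (mean 0.026) were no farther apart than those without (0.0292). The mean over 15 pairs was 0.136 for Locus_72, in the middle of 151 loci with at least 10 counted transcripts and 1000 counts in every animal. Of these 77 (51%) had a lower value, and their median was 0.126. Most of them had far fewer counts than Locus_72. Among the 16 with most counts the median was 0.0904 and the upper quartile 0.128, so Locus_72 lay above that quartile. With adult 6 left out, Locus_72 fell to 0.0867 and 45 of the 151 loci (29.8%) had a lower value. In 26 of the 151 loci (17.2%) adult 6 was the animal farthest from the others, against 42 for juvenile 2 and 35 for juvenile 1, so it did not stand apart in this way across loci in general. Locus_831 has too few transcripts to belong to that set.

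**Figure D4:**
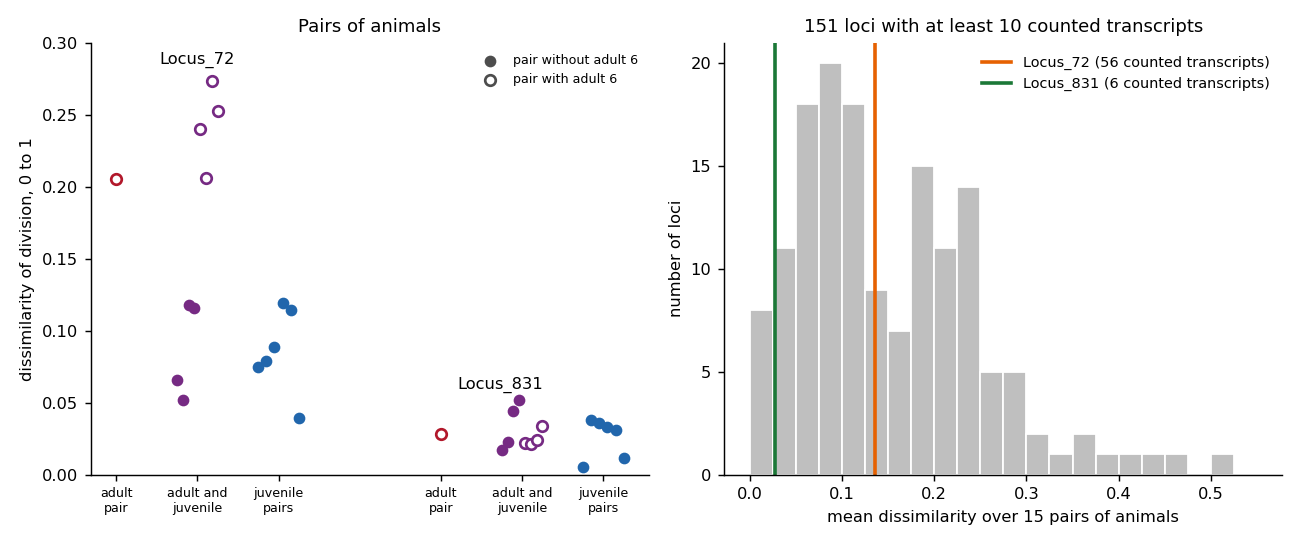
Left, dissimilarity of the division between each pair of animals for Locus_72 and Locus_831 (0 to 1, each point 1 pair, open points the pairs with adult 6); right, histogram of the mean dissimilarity over 15 pairs for 151 loci, with vertical lines for the COX1 loci. All pairs of Locus_72 with adult 6 lie above 0.2 and all others below 0.12, and the mean of Locus_72, 0.136, lies near the median of the histogram, 0.126. Among the 16 loci with most counts the median was 0.0904.

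Whether the transcripts of a locus changed by unequal folds between stages was tested with edgeR's diffSpliceDGE over 3727 loci. For Locus_72 (35 transcripts) the unadjusted p was 1.00 and for Locus_831 (4 transcripts) it was 0.65, with adjusted p = 1.00 for both. Of all loci 4 (0.107%) were called at an adjusted p under 0.05, and 141 (3.78%) had an unadjusted p under 0.05. No difference between stages in the division of either COX1 locus was detected, and the widest differences in the division of Locus_72 were those of adult 6, from the other adult as from the juveniles.

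Of the 66 transcripts, 36 passed the filter on low values (32 of Locus_72 and 4 of Locus_831) and were tested singly between stages. None was called in edgeR's quasi-likelihood test: 0 of 36 had an adjusted p under 0.05, and 0 of 36 an unadjusted p under 0.05. Over all 9979 transcripts tested, 0 (0%) were called and 828 (8.3%) had an unadjusted p under 0.05. DESeq2 called 190 of all transcripts and the exact test of edgeR 11, and no member was among them in either. The lowest p of a member was 0.0581, for transcript 49 of Locus_72 (log2 fold change 0.91 ± 0.41, SE; adjusted p = 0.56 in edgeR), whose log2 fold change was 0.25 with library totals alone.

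The log2 fold changes of the 36 ran from -0.79 to 1.69 with a median of 0.51, beside a median of -0.11 over all transcripts tested. With TMM 28 lay above 0 and 8 below, but with library totals alone, where the median of all was -0.67, only 17 lay above 0 and their median was -0.08. Under either scaling 29 of the 36 lay above the median of all transcripts. A change of scaling moves all transcripts by about the same amount, so this count could hardly change and says nothing about the scaling. The 36 are also parts of 2 loci and not separate observations. The levels of adults and juveniles did not overlap in 3 of the 36 (8.33%), transcripts 49, 50 and 201 of Locus_72, against 2080 of 9979 transcripts tested (20.8%).

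**Figure D5:**
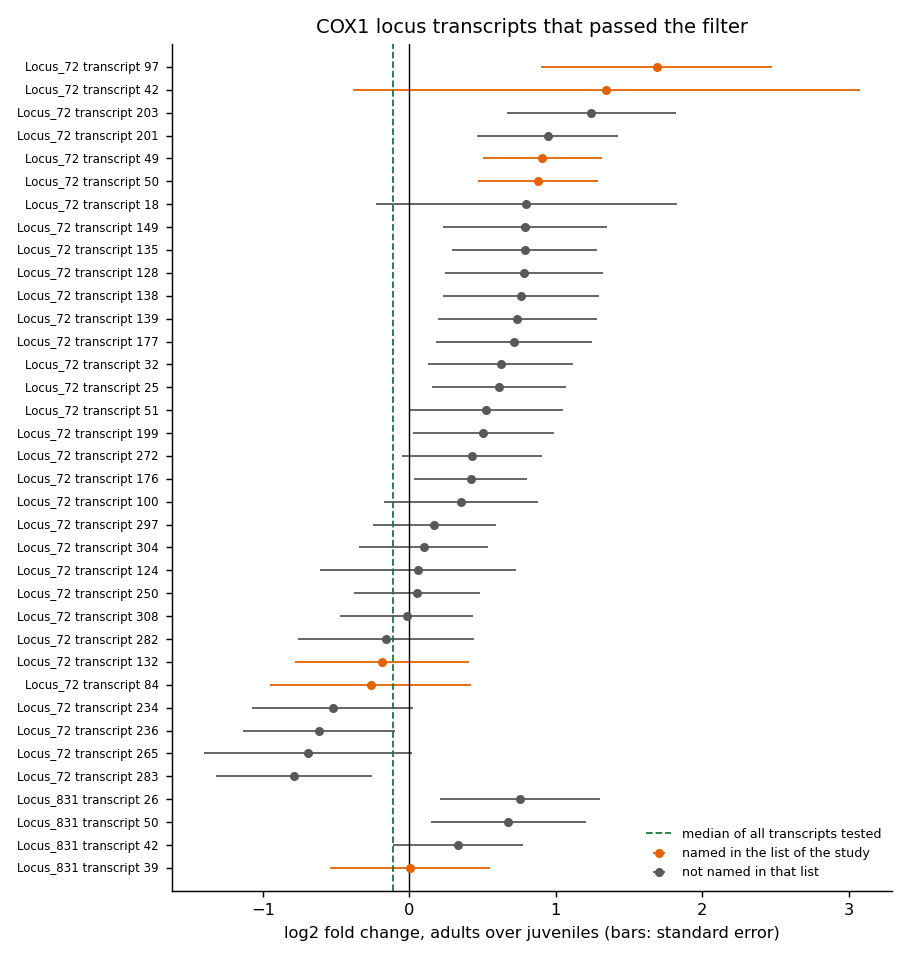
Log2 fold change of adults over juveniles for the 36 COX1 locus transcripts that passed the filter, with bars of 1 standard error, from edgeR's quasi-likelihood fit; orange marks transcripts named in the study's list, and the dashed line is the median of all transcripts tested, -0.11. Transcript 97 has the highest value, 1.69, and transcript 283 the lowest, -0.79, and none passed the test.

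Other transcripts of mitochondrial RNAs or proteins were taken from the names in the study's list. Of the 3 transcripts matched to mitochondrial genomes of fish, 3 were tested and 0 were called in edgeR. Their median log2 fold change was 0.28 (range 0.18 to 0.91). Of 6 listed transcripts of mitochondrial 16S rRNA 5 were tested and 0 were called in edgeR, with a median log2 fold change of 1.21 (range 1.09 to 1.69), above that of every COX1 locus transcript but transcripts 97, 42 and 203. Of 9 nuclear genes of mitochondrial proteins 7 were tested and 0 were called, with a median of 0.57, 6 above 0 and 1 below. Among these, NAD(P) transhydrogenase, which makes NADPH at the inner membrane, stood at 175 and 218 CPM in adults 5 and 6, against 72.3, 107, 81.5 and 82.3 CPM in juveniles 1 to 4. It was picked once the values were known, as the highest log2 fold change of this list (1.20). Its groups did not overlap, as in 20.8% of all transcripts tested, yet its adjusted p was 0.56 in edgeR. Nor did those of the 2-oxoglutarate/malate carrier, pyruvate dehydrogenase E1 and the dihydrolipoyl succinyltransferase overlap. Those of aconitate hydratase, ribosomal protein L13 of mitochondria and 2-oxoisovalerate dehydrogenase did. The 7 named COX1 locus transcripts had a median of 0.88, 5 above 0 and 2 below, with 0 called.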

How the data were processed

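Body wall RNA of 6 captive animals (2 adults and 4 juveniles) was analysed, 1 library each. The authors prepared stranded libraries from polyadenylated RNA, aligned paired-end reads by HISAT2, whose version no source used here gives, to the transcriptome assembled from wild animals with Velvet, Oases and CD-HIT, and kept reads with a unique match. The deposited values are raw counts per assembled transcript. Reads that match several transcripts equally were not counted, so stretches shared between the transcripts of a locus are missing from its sum, and a share can move with them. Sequences of the transcripts were not used here, and overlaps between them were not checked. The table holds 129776 transcripts, 22406 of them without a count.

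Counts were summed per locus and tested in R 4.3.3 with edgeR 4.0.16 (quasi-likelihood test, TMM, Benjamini-Hochberg adjustment, two-sided) over transcripts or loci with 3 CPM in at least 3 juveniles and both adults. The study's own filter asked for 3 samples per group. CPM use TMM factors fitted on transcripts or on loci, as named. Division was tested with diffSpliceDGE over transcripts with 3 CPM in at least 2 animals. Shares were compared with exact permutation tests (scipy 1.17.1). Each animal is 1 replicate.

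Names were taken from the annotated lists of the study's supplement. The text names every member with a name there, those holding at least 10% of their locus in some animal, and the 3 named loci with the closest profile to each member; the others were chosen after their values had been seen. Members and lists were chosen with earlier results of these data known. Alternatives covered normalization, tool (DESeq2 1.42.0), filter, short transcripts (under 150 nt), length scaling and leaving out each animal, and 4 more were chosen once the data were known. Fits were tried on simulated data. The division test was tried there only with a large change at a fixed dispersion, so its power in these data is not known.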

Additional observations from a re-analysis of the deposited data

Results flagged for a closer look

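Among the 4 juveniles, 4 of 19 sets of values held an animal far from the other 3 by Dixon's ratio at its 95% critical value, a test that marks about 1 set in 20 by chance. Juvenile 1 held 0.191% of Locus_72 in transcript 84, against 0.0432% to 0.0516% in the other juveniles. Juvenile 3 held 2.73% of Locus_831 in transcript 39, against 3.87% to 4.03% in the others. Juvenile 2 held 5.10% of its library counts in Locus_72 and 0.709% in Locus_831, against at most 3.14% and 0.393% in the others. The 2 values of juvenile 2 are not separate, since the loci move together and share a library total.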

How the results depend on the processing

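No member transcript and neither locus passed the threshold under any setting run. Counts of calls over all features moved: transcripts from 0 to 190 with DESeq2, 11 with the exact test and 7 without a filter; loci from 0 to 154, 12 (no filter) and 7 (exact test); and divisions from 4 to 8 with filterByExpr, 1 with the filter within stages and 2 with library totals alone, and between 1 and 7 with an animal left out (1 without juvenile 4, 7 without juvenile 3). At a 5-fold limit 7 members in place of 3 differed in share between animals. With library totals alone the log2 fold change of Locus_72 turned to -0.027, that of transcript 100 to -0.14 and that of Locus_831 transcript 39 to -0.51; filterByExpr turned transcripts 132 to 0.058 and 282 to 0.041. With an animal left out, the log2 fold changes of Locus_72 ran from 0.50 to 0.99 and of Locus_831 from 0.53 to 1.23. With an animal left out transcript 97 ran from 1.03 (without adult 6) to 2.44 (without juvenile 2), transcript 42 from -3.20 (without adult 5) to 2.35, transcript 84 from -0.46 to 0.49 (without juvenile 1), transcript 282 from -1.20 to 0.49 (0.11 without juvenile 2, 0.49 without adult 6), and transcript 39, at 0.0022 with all animals, from -0.14 to 0.53 (-0.14, -0.06 and -0.09 without juvenile 3, juvenile 4 and adult 5); none of these was called, and the cause was not tested. Dividing counts by length changed the difference in share (adults minus juveniles, percentage points) to -0.52 for transcript 100, -2.64 for transcript 282 and -0.60 for transcript 39, without a change of sign. No paired analysis was possible because the groups share no animal, and each animal gave 1 library. With 2 adults, the exact tests of stages cannot go below p = 0.0667 at any depth.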
